A study of Mus musculus with 3 samples.

Results

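The data describe 46 genes that carry proteins into the endoplasmic reticulum (ER), fold them there and check them, across the cells of the adult mouse lacrimal gland (LG). The genes were chosen as a list, by name, and all 46 were rows of the 3 count matrices, which hold 32285 genes in all. The list was made with earlier results of these data known. It includes *Rpn2*, *P4hb*, *Qsox1*, *Edem2* and *Sec61g*, which the study names as differing between its acinar clusters. They were grouped by role as 11 genes of translocation, 4 of the signal peptidase, 5 of the oligosaccharyltransferase, 6 that form or shuffle disulfide bonds, 13 chaperones and their partners, 3 mannosidase-like proteins of quality control, 1 transcription factor and 3 receptors that return ER residents from the Golgi.

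The 3 libraries of single cells were made with 10x Genomics 3′ chemistry from C57BL/6J mice aged 2 months, 1 from females and 2 from males. Each library pooled the LGs of 3 animals, so that no single animal can be followed, and the labels name no transgene, deletion or treatment. The female library was made at another site and on another day than the male libraries, so sex, site and day cannot be told apart, and no test of sex was made.

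As background, a secreted protein begins as a chain with a signal peptide, which the signal recognition particle brings to the Sec61 channel of the ER membrane. The signal peptidase cuts the peptide off, the oligosaccharyltransferase attaches a sugar tree, chaperones of the HSP70 and HSP90 classes and lectin chaperones hold the chain, and disulfide isomerases set its bonds. Chains that fail to fold are marked by the EDEM proteins and removed, and an overload of chains switches on the unfolded protein response, in which XBP1 raises many of these genes. Acinar cells of the LG make the proteins of the tear film and are built around this machinery.

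The libraries held 102463570 to 154532064 unique molecular identifiers (UMIs) over all barcodes, and 5295 to 7652 cells were kept in each, with a median of 1789 to 3254 UMIs per cell. Pairs of libraries shared 8, 11 or 13 kept barcodes. Tear-product genes took 85.2% to 89.4% of the UMIs of acinar cells and 29.1% to 54.5% of those of ductal cells. Levels are therefore given as CPM, the usual scaling of counts to a common total, over the UMIs that remain once 124 tear-product genes and 13 mitochondrial genes are left out. A total of 12 classes of cells were rebuilt by clustering without the 46 genes and named from marker genes, as acinar-like, ductal-like and so on, and the ending is left out below. The acinar class held 563, 1325 and 1554 cells, with the female library first, then male libraries 1 and 2, the order of all values that follow. The acinar markers *Lpo*, *Pigr*, *Prom2* and the others of their list summed to 36230, 57710 and 48770 CPM there, against 2547 to 7349 CPM in ductal cells, and the ductal markers summed to 9175 to 11150 CPM in ductal cells against 10.5 to 36.4 CPM in acinar cells. Free RNA, read from barcodes that were not called as cells, held the 46 genes at 1.39%, 2.71% and 2.75%, and its tear-product share was 75.1%, 83.9% and 84.1%.

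Acinar cells gave the 46 genes the largest summed share of the 12 classes in each of the 3 libraries. The sum was 2.77%, 4.13% and 4.15% of the UMIs counted, with a mean of 3.68% ± 0.791 (SD, n = 3). The plasma class, named from genes of antibody-secreting cells, had 2.28%, 2.68% and 3.58%. The study states that plasma cells were missing from its dataset. A cluster of this class also had the cycling genes *Ube2c*, *Cdc20*, *Stmn1* and *Birc5* among its top genes. The acinar markers summed to 16830, 29190 and 36760 CPM in the plasma class and tear-product genes took 74.8% to 88.1% of its UMIs, the part of this RNA in its sum was not tested, and the median plasma cell held 1.27%, 2.18% and 3.57%. *Car6*-high acinar cells, a small acinar population marked by carbonic anhydrase 6, held 2.35%, 2.90% and 2.86%, and *Tfrc*-high acinar cells, marked by the transferrin receptor and by nuclear transcripts, held 1.59%, 2.97% and 2.73%. The *Ltf*+ epithelial cells, which express lactotransferrin, lay lower with 1.79%, 1.97% and 2.15%. Ductal cells held 0.844%, 1.16% and 1.15%, myoepithelial cells (MECs) 0.794%, 1.061% and 1.02%, and fibroblasts 1.18%, 1.59% and 1.40%. Endothelial, mural, lymphoid and myeloid cells had means of 0.967% to 1.24%. The female library was the lowest of the 3 in each of the 12 classes.

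**Figure D1:**
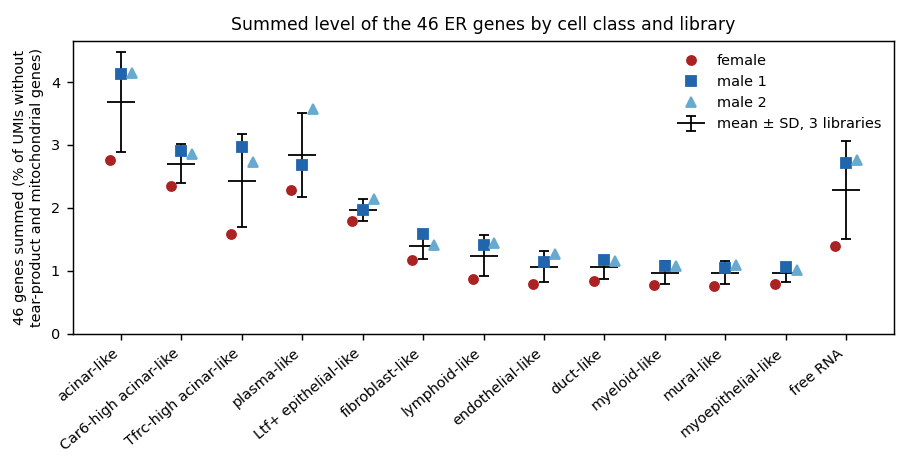
Summed UMIs of the 46 genes as a percentage of all UMIs without tear-product and mitochondrial genes (vertical axis), for each class of cells and for free RNA (horizontal axis), with 1 point per library and bars for the mean ± SD of the 3 libraries. The acinar points reach from 2.77% to 4.15% and the ductal points from 0.844% to 1.16%. With all UMIs kept in the totals, tear-product and mitochondrial ones included, the median fold change of the 46 genes in ductal over acinar cells turns positive. It is then 0.51 on the log2 scale, beside 2.70 for all genes tested.

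The translocation genes summed to 0.758%, 1.13% and 1.22% in acinar cells and to 0.216%, 0.309% and 0.313% in ductal cells. The signal peptidase genes summed to 0.41%, 0.616% and 0.624% and 0.0854%, 0.142% and 0.159% in the same classes, and the disulfide genes to 0.59%, 0.899% and 0.868% and 0.12%, 0.178% and 0.17%. The chaperones differed less, with 0.663%, 0.995% and 0.956% in acinar cells and 0.286%, 0.365% and 0.34% in ductal cells. The EDEM genes had their highest mean in *Tfrc*-high cells, with 0.103%, 0.138% and 0.13%, beside 0.0718%, 0.108% and 0.106% in acinar cells and 0.00781%, 0.0128% and 0.0181% in ductal cells. The KDEL receptors were the only one of the 8 groups with its highest mean in fibroblasts, at 0.0675%, 0.0685% and 0.0554% against 0.0349%, 0.0533% and 0.0506% in acinar cells.

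By single gene, 26 of the 46 had their highest mean CPM in acinar cells, 7 in fibroblasts, 6 in *Tfrc*-high acinar cells, 3 in *Car6*-high acinar cells, 2 in plasma cells and 2 in *Ltf*+ cells. These ranks are a description. The highest in acinar cells was *Agr2*, a disulfide isomerase of mucus-making tissues, at a mean of 3877 CPM, and the lowest was *Kdelr3*, at 37.0 CPM. The 3′ chemistry counts molecules, so CPM were not divided by gene length, and levels of different genes are not compared further.

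**Figure D2:**
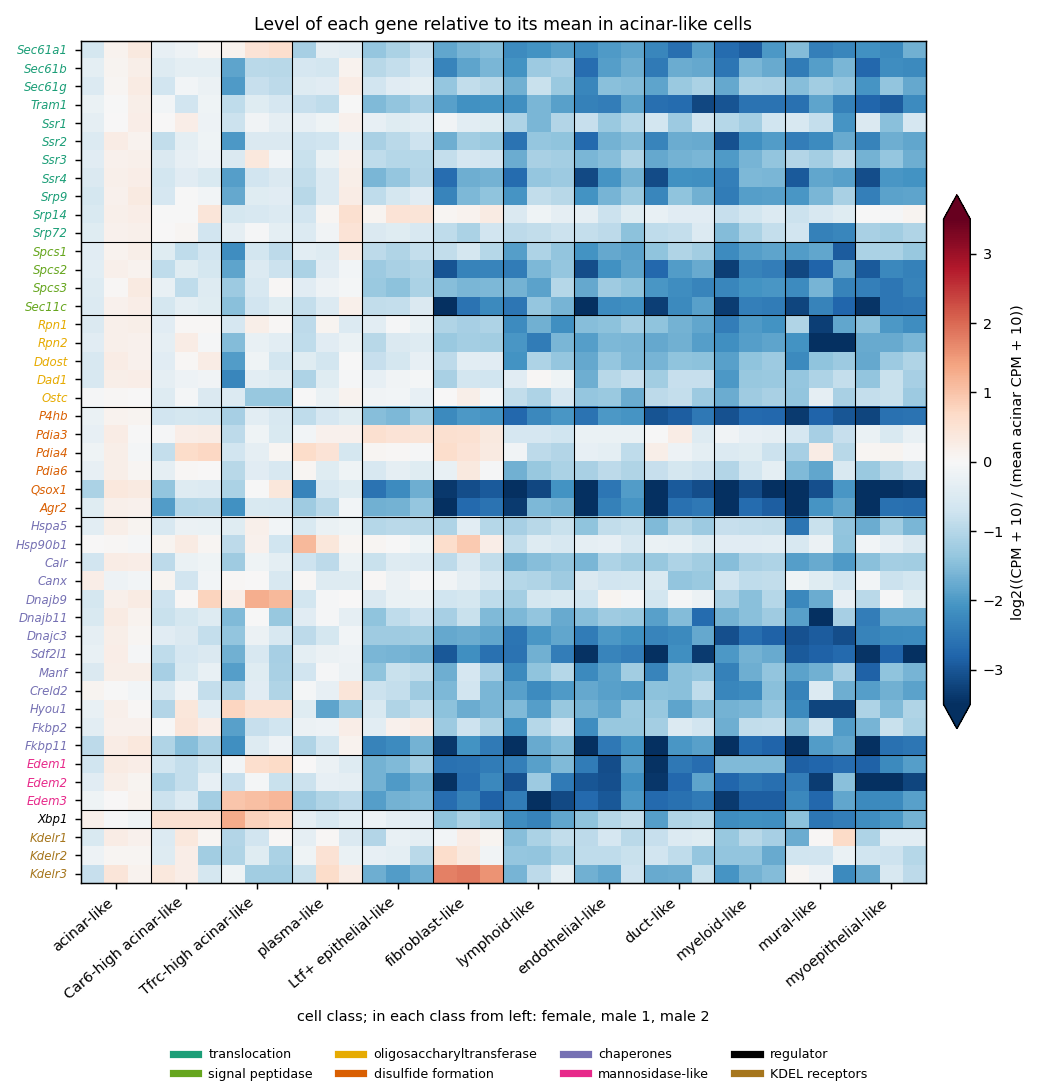
Level of each of the 46 genes (rows, grouped by role) in each class (columns), with 1 column per library in the order female, male 1, male 2. The color is the log2 ratio of CPM to the gene's mean CPM in acinar cells, with a pseudocount of 10 added to both. Blue, lower than acinar, fills most rows of the ductal and stromal classes, while *Kdelr3* is red in fibroblasts and *Xbp1* in *Tfrc*-high cells, on totals without tear-product UMIs.

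*Xbp1* encodes the transcription factor that raises chaperone and translocation genes once its transcript has been spliced in the cytoplasm, a step that 3′ counts do not see. Its level was 1475, 1054 and 983 CPM in *Tfrc*-high, 869, 879 and 866 CPM in *Car6*-high and 675, 583 and 539 CPM in acinar cells. It was 532, 484 and 450 CPM in *Ltf*+ cells, 149, 283 and 293 CPM in ductal cells and 125, 141 and 185 CPM in MECs. Every *Tfrc*-high and *Car6*-high value lay above every acinar value, and every *Ltf*+, ductal and MEC value lay below. Fibroblasts had 218, 272 and 228 CPM, endothelial cells 220, 292 and 331 CPM and myeloid cells 124, 130 and 127 CPM, with no overlap with acinar cells in any of the 3.

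*Hspa5* encodes BiP, the HSP70 chaperone of the ER lumen. It was at 1279, 1880 and 1766 CPM in acinar cells, 1101, 1416 and 1388 CPM in *Car6*-high and 1226, 1865 and 1531 CPM in *Tfrc*-high cells, and these 3 classes overlapped. It was lower without overlap in *Ltf*+ cells, at 814, 850 and 827 CPM, in ductal cells, at 554, 790 and 679 CPM, and in MECs, at 483, 699 and 535 CPM. Fibroblasts held 765, 1277 and 821 CPM, endothelial cells 607, 891 and 951 CPM and myeloid cells 928, 910 and 897 CPM, again below each acinar value.

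*P4hb*, the main protein disulfide isomerase, was at 1938, 2471 and 2437 CPM in acinar cells and at 1435, 1498 and 1451 CPM and 1022, 1753 and 1541 CPM in *Car6*-high and *Tfrc*-high cells. In *Ltf*+ cells it was at 809, 760 and 982 CPM, in ductal cells at 271, 303 and 392 CPM and in MECs at 238, 366 and 375 CPM. Fibroblasts had 476, 557 and 534 CPM, endothelial cells 373, 555 and 536 CPM and myeloid cells 269, 338 and 332 CPM. Acinar cells were the highest in each library, and no other of these classes overlapped them.

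*Qsox1* encodes a sulfhydryl oxidase that makes disulfide bonds and passes through the Golgi. Its female value was low in acinar cells, at 402, 1149 and 1107 CPM over the 3 libraries, with 334, 648 and 637 CPM in *Car6*-high and 402, 872 and 1176 CPM in *Tfrc*-high cells. It was at 140, 186 and 265 CPM in *Ltf*+ cells, 43.4, 108 and 93.7 CPM in ductal cells and 47.2, 65.2 and 75.05 CPM in MECs. Fibroblasts had 75.4, 94.3 and 108 CPM, endothelial cells 65.4, 145 and 219 CPM and myeloid cells 33.7, 93.2 and 70.5 CPM, each below the lowest acinar value. *Agr2* was at 2892, 4422 and 4316 CPM in acinar cells, 987, 1923 and 1983 CPM in *Car6*-high, 888, 2695 and 2605 CPM in *Tfrc*-high and 1207, 1217 and 1500 CPM in *Ltf*+ cells. It was at 224, 626 and 673 CPM in ductal cells, 201, 626 and 610 CPM in MECs and 193, 585 and 642 CPM in fibroblasts. Endothelial cells held 269, 749 and 918 CPM and myeloid cells 194, 596 and 515 CPM. The male values of *Agr2* outside the epithelium stood beside 1304, 2391 and 2053 CPM in free RNA, and all of them lay below every acinar value.

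*Edem2* takes part in trimming mannose from misfolded glycoproteins. It was at 309, 472 and 438 CPM in acinar cells, 189, 224 and 334 CPM in *Car6*-high and 230, 385 and 233 CPM in *Tfrc*-high cells, which overlapped. It fell without overlap to 123, 96.0 and 116 CPM in *Ltf*+ cells, 29.1, 51.8 and 105 CPM in ductal cells and 23.0, 21.7 and 35.0 CPM in MECs. Fibroblasts had 28.0, 56.9 and 77.9 CPM, endothelial cells 41.8, 39.4 and 83.9 CPM and myeloid cells 50.5, 61.3 and 56.4 CPM. *Rpn2*, a subunit of the oligosaccharyltransferase, was at 430, 642 and 631 CPM in acinar and 456, 678 and 553 CPM in *Car6*-high cells, which overlapped, and at 192, 476 and 436 CPM in *Tfrc*-high and 286, 400 and 417 CPM in *Ltf*+ cells. Ductal cells had 157, 172 and 140 CPM, MECs 161, 159 and 180 CPM, fibroblasts 226, 244 and 237 CPM, endothelial cells 141, 184 and 182 CPM and myeloid cells 120, 141 and 152 CPM. *Sec61g*, the smallest subunit of the Sec61 channel, was at 915, 1326 and 1562 CPM in acinar, 794, 1192 and 1106 CPM in *Car6*-high and 788, 956 and 996 CPM in *Ltf*+ cells, and these 3 classes overlapped. It was at 313, 720 and 669 CPM in *Tfrc*-high cells, 342, 510 and 585 CPM in ductal cells and 298, 478 and 360 CPM in MECs, below every acinar value. Fibroblasts, endothelial cells and myeloid cells had 488, 688 and 638 CPM, 254, 454 and 438 CPM and 362, 585 and 568 CPM.

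The genes were next set side by side in promoter sequence, since several of them are textbook targets of the unfolded protein response. RefSeq promoters on GRCm38.p6, 250 bases before and 50 after the start, were given for 37 of the 46 genes, and none were given for *Spcs3*, *Tram1*, *Kdelr2*, *Hyou1*, *Sec61a1*, *Sec11c*, *Ostc*, *Ssr2* and *Manf*. The ER stress response element (ERSE), searched on both strands as CCAAT, then 9 bases of any kind, then CCACG, was found in 7 of the 37 genes (18.9%) and in 37 of the 27025 genes of the table (0.137%). The related ERSE-II, ATTGG, any base, then CCACG, was found in *Dnajb11* and in 0.0444% of all genes, and an 8-base element bound by XBP1 and ATF6 (UPRE, TGACGTGG) was found in *Kdelr3* and in 0.714% of all genes. The parts CCACG and CCAAT, which the ERSE contains, were each found in 26 of the 37 genes (70.3%), against 35.5% and 41.1% of all genes, and the cyclic AMP element TGACGTCA in 0 of the 37 and 2.03% of all genes. These matches describe letters and do not show binding. The stretches around each ERSE are shown because they carry the one sequence feature found in several of the 46 genes and in few others. They read 5′ to 3′ on the strand of the gene, with the motif in capitals, so an ERSE on the opposite strand shows as its reverse complement, and *Hsp90b1* has one in each orientation.
Hspa5 (chr2:34772005-34772063, plus strand): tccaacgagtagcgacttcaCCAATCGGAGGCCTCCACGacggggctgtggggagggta
Calr (chr8:84847055-84847113, minus strand): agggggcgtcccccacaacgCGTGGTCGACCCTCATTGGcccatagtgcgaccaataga
Hsp90b1 (chr10:86705618-86705676, minus strand): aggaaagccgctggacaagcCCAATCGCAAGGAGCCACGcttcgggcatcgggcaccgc
Hsp90b1 (chr10:86705513-86705571, minus strand): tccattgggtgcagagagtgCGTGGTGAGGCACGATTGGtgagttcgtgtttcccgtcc
Pdia6 (chr12:17266471-17266529, plus strand): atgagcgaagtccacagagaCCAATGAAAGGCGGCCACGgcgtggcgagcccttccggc
Canx (chr11:50325780-50325838, minus strand): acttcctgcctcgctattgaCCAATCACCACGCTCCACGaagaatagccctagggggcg
Dnajc3 (chr14:118937807-118937865, plus strand): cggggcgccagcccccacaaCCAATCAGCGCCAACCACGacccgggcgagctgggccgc
Creld2 (chr15:88819500-88819558, plus strand): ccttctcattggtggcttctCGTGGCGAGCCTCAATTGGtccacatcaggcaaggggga

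The other elements are shown in the same way, ERSE-II for *Dnajb11*, just past its start, and the UPRE for *Kdelr3*, on the opposite strand.
Dnajb11 (chr16:22857842-22857872, plus strand): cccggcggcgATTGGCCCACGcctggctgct
Kdelr3 (chr15:79516358-79516405, plus strand): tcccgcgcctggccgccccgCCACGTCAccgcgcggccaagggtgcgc
For comparison, the 250 bases before the start are given for *Hspa5*, with its ERSE in capitals, and for *Qsox1*, one of the genes that differed most between acinar and other cells, where none of ERSE, ERSE-II and UPRE was found.
Hspa5 (chr2:34771840-34772089, plus strand): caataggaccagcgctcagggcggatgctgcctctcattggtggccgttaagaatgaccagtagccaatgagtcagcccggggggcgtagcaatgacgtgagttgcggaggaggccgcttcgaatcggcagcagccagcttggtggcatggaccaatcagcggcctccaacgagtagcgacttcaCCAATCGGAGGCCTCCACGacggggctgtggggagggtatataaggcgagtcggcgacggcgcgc
Qsox1 (chr1:155812900-155813149, minus strand): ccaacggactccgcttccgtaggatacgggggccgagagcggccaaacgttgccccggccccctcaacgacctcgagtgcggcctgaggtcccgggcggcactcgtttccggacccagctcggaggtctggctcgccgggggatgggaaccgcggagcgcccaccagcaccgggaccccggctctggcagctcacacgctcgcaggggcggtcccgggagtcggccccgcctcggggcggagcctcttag

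The 7 genes with an ERSE were *Hspa5*, *Calr*, *Hsp90b1*, *Pdia6*, *Canx*, *Dnajc3* and *Creld2*, 6 of them chaperones or their partners. Their log2 fold changes of ductal over acinar cells had a median of −1.17 and a range of −2.13 to −0.32, beside a median of −1.73 for the 30 genes with a promoter entry and no ERSE. In *Ltf*+ against acinar cells the medians were −0.54 and −0.70. In high against low mitochondrial acinar cells, defined below, they were 0.22 and 0.12. These medians describe the genes and were not tested against each other.

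To compare classes, UMIs were summed per library and class and tested with edgeR's quasi-likelihood test, with the library as a block, and a gene was called at a Benjamini-Hochberg adjusted p under 0.05 over all 8430 genes tested. All 46 genes passed the filter on low counts. Each library is 1 pool of animals, and all 12 classes shared 1 fit. The p-values therefore rest on the spread left after the library block, estimated over all classes and not over the compared classes alone. In ductal against acinar cells, 41 of the 46 genes were lower and 0 higher, where 14.4% of all genes tested were lower and 38.5% were higher. The median log2 fold change of the 46 genes was −1.71, and that of all genes 0.48, a difference of −2.20. By role, 10 of 11 translocation genes, 4 of 4 signal peptidase genes, 5 of 5 oligosaccharyltransferase genes, 4 of 6 disulfide genes, 11 of 13 chaperones, 3 of 3 EDEM genes, 3 of 3 KDEL receptors and *Xbp1* fell. The direction depends on the totals. With all UMIs kept in them, tear-product and mitochondrial ones included, the median became 0.51, with 23 genes called higher and 7 lower. The scale of all genes moved as well. Over the 9533 genes tested in that fit the median was 2.70, with 8253 higher and 140 lower, so the 46 genes stayed below the median gene.

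The largest ductal differences were those of *Edem1*, *Qsox1* and *Sdf2l1*. *Edem1*, which marks misfolded glycoproteins, was at 165, 338 and 322 CPM in acinar and 16.1, 39.9 and 35.1 CPM in ductal cells, 10.9-fold lower (log2 fold change −3.44 ± 0.30 (SE), adjusted p = 2.4e-13). *Qsox1*, with the values above, was 10.6-fold lower (log2 fold change −3.40 ± 0.26 (SE), adjusted p = 6.3e-15). *Sdf2l1*, a partner of BiP and its DNAJ cochaperones, was at 428, 610 and 500 CPM and 36.8, 108 and 41.0 CPM, 9.14-fold lower (log2 fold change −3.19 ± 0.25 (SE), adjusted p = 2.6e-14). None of the 3 overlapped between the classes, and each was lower in 3 of 3 libraries. *Agr2* was 8.59-fold lower (log2 fold change −3.10 ± 0.27 (SE), adjusted p = 2e-13) and *P4hb* 7.11-fold lower (log2 fold change −2.83 ± 0.18 (SE), adjusted p = 3.2e-17). *Xbp1* was 2.63-fold lower (log2 fold change −1.40 ± 0.22 (SE), adjusted p = 8.4e-07), *Hspa5* 2.43-fold lower (log2 fold change −1.28 ± 0.20 (SE), adjusted p = 4e-07) and *Edem2* 8.04-fold lower (log2 fold change −3.01 ± 0.30 (SE), adjusted p = 1.9e-11). *Rpn2* and *Sec61g* had log2 fold changes of −1.78 and −1.41, both called.

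The remaining 5 genes were not called in ductal cells. *Pdia3*, the isomerase that works with the lectin chaperones, was at 304, 445 and 365 CPM in acinar and 370, 447 and 269 CPM in ductal cells (log2 fold change −0.02 ± 0.18 (SE), adjusted p = 0.94). *Pdia4*, another isomerase, was at 69.5, 90.0 and 72.9 CPM and 91.8, 67.8 and 58.5 CPM (log2 fold change −0.01 ± 0.27 (SE), adjusted p = 0.99), and *Dnajb9*, a cochaperone of BiP, at 81.0, 149 and 159 CPM and 80.2, 124 and 111 CPM (log2 fold change −0.26 ± 0.24 (SE), adjusted p = 0.37). The classes overlapped for all 3. The other two were *Srp14* and *Hsp90b1*, with log2 fold changes of −0.29 and −0.32. Among the isomerases, *P4hb*, *Agr2* and, at a log2 fold change of −0.71, *Pdia6* were thus called, and *Pdia3* and *Pdia4* were not. Genes that respond to dissociation, a list of 21, summed to 47490, 43050 and 44400 CPM in ductal cells and to 1949, 7178 and 6905 CPM in acinar cells, 19 of them called higher, and their part in these results was not tested. Free RNA made up 36.8% to 60.8% of all UMIs of ductal cells by the tear-product genes, and with it subtracted 40 genes were lower and 0 higher.

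MECs, the contractile cells around the acini, were compared in the same way. Of the 46 genes, 41 were lower and 0 higher than in acinar cells, beside 15.1% and 39.2% of all genes tested, and the median was −1.77 against 0.49 for all genes. The 3 lowest were *Edem2* at 23.0, 21.7 and 35.0 CPM, 14.8-fold lower (log2 fold change −3.88 ± 0.33 (SE), adjusted p = 1.6e-13), *Qsox1*, 12.6-fold lower (log2 fold change −3.65 ± 0.27 (SE), adjusted p = 1.3e-15), and *Sdf2l1* at 38.7, 65.2 and 20.0 CPM, 11.7-fold lower (log2 fold change −3.54 ± 0.26 (SE), adjusted p = 2.4e-15). None overlapped with acinar cells. The 3 highest were not called. *Srp14*, a subunit of the signal recognition particle, was at 196, 327 and 338 CPM in acinar cells and 287, 279 and 305 CPM in MECs (log2 fold change 0.05 ± 0.20 (SE), adjusted p = 0.85). *Pdia4* was at 82.3, 83.3 and 75.05 CPM (log2 fold change 0.04 ± 0.28 (SE), adjusted p = 0.92), and *Hsp90b1*, the HSP90 of the ER, at 668, 678 and 644 CPM in acinar cells and 624, 543 and 465 CPM in MECs (log2 fold change −0.29 ± 0.21 (SE), adjusted p = 0.25). With all UMIs in the totals the median turned to 0.52, beside 2.82 for all genes tested. *Xbp1*, *Hspa5*, *P4hb* and *Agr2* were 4.10-fold, 2.85-fold, 7.11-fold and 9.13-fold lower, and *Rpn2* and *Sec61g* had log2 fold changes of −1.73 and −1.72, all called. Dissociation genes summed to 33400, 33440 and 36300 CPM in MECs, and their part was not tested.

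The *Ltf*+ cells stood between acinar and ductal cells. Against acinar cells, 32 of the 46 genes were lower and 1 higher, with 6.16% and 33.2% of all genes tested lower and higher, and the median was −0.85 against 0.50 for all genes. All 4 signal peptidase genes, all 3 EDEM genes and all 3 KDEL receptors fell, with 8 of 11 translocation genes, 9 of 13 chaperones, 3 of 6 disulfide genes and 2 of 5 oligosaccharyltransferase genes. *Xbp1* was not called (log2 fold change −0.30 ± 0.21 (SE), adjusted p = 0.27). The median turned to 0.71 with all UMIs in the totals, beside 2.035 for all genes tested. Free RNA was not subtracted from the sums of *Ltf*+ cells, so its part in them was not tested. In the refit that subtracted it from ductal, myoepithelial, stromal and myeloid sums, which takes nothing from *Ltf*+ or acinar sums, 20 genes were called lower, 7910 genes were tested and the median stayed at −0.85.

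*Kdelr3*, a KDEL receptor, was the lowest in *Ltf*+ cells with 2, 1 and 2 UMIs, or 4.30, 2.04 and 4.38 CPM, against 16.7, 52.9 and 41.3 CPM in acinar cells (log2 fold change −3.26 ± 0.61 (SE), adjusted p = 2.9e-05). From so few UMIs, the ratio of *Ltf*+ to acinar cells was 0.258 in the female library (95% exact interval 0.0305 to 0.973), 0.0386 in male library 1 (0.000971 to 0.218) and 0.106 in male library 2 (0.0127 to 0.392), where the intervals cover counting error alone. *Qsox1* was 4.24-fold lower (log2 fold change −2.08 ± 0.23 (SE), adjusted p = 8e-10). *Fkbp11*, a prolyl isomerase of secretory cells, was at 398, 915 and 984 CPM in acinar and 144, 157 and 237 CPM in *Ltf*+ cells, 4.00-fold lower (log2 fold change −1.999 ± 0.31 (SE), adjusted p = 1.1e-06). None of these 3 overlapped. *Pdia3* was the 1 gene that was higher, at 557, 519 and 515 CPM, 1.44-fold (log2 fold change 0.52 ± 0.18 (SE), adjusted p = 0.018), but with TMM scaling its log2 fold change was −0.04 and it was not called. *Srp14* was at 306, 406 and 399 CPM (log2 fold change 0.38 ± 0.19 (SE), adjusted p = 0.11) and *Fkbp2*, another prolyl isomerase, at 332, 484 and 485 CPM in acinar and 331, 478 and 522 CPM in *Ltf*+ cells (log2 fold change 0.03 ± 0.19 (SE), adjusted p = 0.94). *P4hb*, *Agr2*, *Hspa5* and *Edem2* were 2.67-fold, 2.82-fold, 1.94-fold and 3.55-fold lower, and *Rpn2* and *Sec61g* had log2 fold changes of −0.62 and −0.45, all called.

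Set against ductal cells, *Ltf*+ cells were higher for 32 of the 46 genes and lower for 0, with 12.7% and 11.5% of all genes tested higher and lower. The median was 0.90 against 0.06 for all genes. *Edem1* was at 79.6, 87.8 and 114 CPM in *Ltf*+ and 16.1, 39.9 and 35.1 CPM in ductal cells, 3.78-fold higher (log2 fold change 1.92 ± 0.32 (SE), adjusted p = 8.2e-06). *Sec11c*, a catalytic subunit of the signal peptidase, was at 1087, 1111 and 1405 CPM and 195, 419 and 521 CPM, 3.51-fold higher (log2 fold change 1.81 ± 0.22 (SE), adjusted p = 1.4e-08), and *Agr2* was 3.05-fold higher (log2 fold change 1.61 ± 0.26 (SE), adjusted p = 3.5e-06). No *Ltf*+ value of these 3 genes overlapped a ductal value. The lowest fold changes were those of *Kdelr3* (log2 fold change −0.82 ± 0.87 (SE), adjusted p = 0.57), at 3.85, 3.99 and 17.6 CPM in ductal cells, *Dnajb9*, at 88.2, 108 and 110 CPM in *Ltf*+ cells (log2 fold change −0.04 ± 0.26 (SE), adjusted p = 0.96), and *Pdia4*, at 81.8, 79.6 and 74.5 CPM (log2 fold change 0.03 ± 0.30 (SE), adjusted p = 0.98). *Xbp1* was 2.15-fold higher (log2 fold change 1.10 ± 0.23 (SE), adjusted p = 0.00019), *P4hb* 2.67-fold (log2 fold change 1.42 ± 0.18 (SE), adjusted p = 2.5e-08), and *Hspa5* was not called (log2 fold change 0.32 ± 0.20 (SE), adjusted p = 0.26). *Rpn2*, *Qsox1*, *Edem2* and *Sec61g* had log2 fold changes of 1.16, 1.32, 1.18 and 0.96, all called. Oligosaccharyltransferase genes rose in 5 of 5 cases, translocation genes in 9 of 11 and KDEL receptors in 0 of 3. Without male library 2, 20 genes were called higher. With all UMIs in the totals, 6 were called, all higher, where 332 of all 9533 genes tested were higher and 2312 lower. Dissociation genes went the other way, with 17 of 21 lower in *Ltf*+ cells and sums of 5953, 12050 and 11970 CPM, and their part was not tested.

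**Figure D3:**
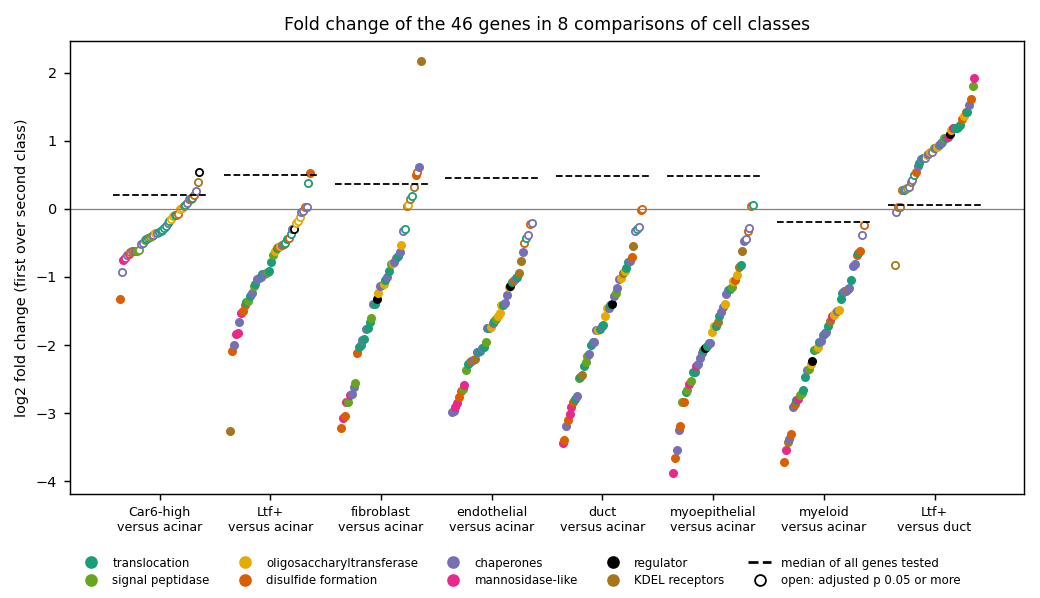
Log2 fold changes of the 46 genes (vertical axis, 1 dot per gene, colored by role and sorted by value) in each of 8 comparisons of classes (horizontal axis), with filled dots where the adjusted p was under 0.05 and a dashed line at the median of all genes tested. In the ductal, MEC, endothelial and myeloid comparisons 41, 41, 41 and 44 dots are filled and below 0. With all UMIs in the totals, tear-product and mitochondrial ones included, the medians of the 46 genes turn positive there, to 0.51, 0.52, 0.42 and 0.50. The medians of all genes tested are then 2.70, 2.82, 2.6 and 2.07.

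*Car6*-high cells gave the fewest calls of the comparisons with acinar cells. Of the 46 genes, 4 were lower and 0 higher, beside 0.83% and 7.34% of all genes tested, with a median of −0.33 against 0.20 for all genes. *Agr2* was 2.50-fold lower (log2 fold change −1.32 ± 0.25 (SE), adjusted p = 0.00016), with *P4hb* 1.54-fold lower (log2 fold change −0.62 ± 0.17 (SE), adjusted p = 0.012), *Spcs2*, a signal peptidase subunit, at 2082, 3082 and 2958 CPM in acinar and 1447, 1997 and 1775 CPM in *Car6*-high cells (log2 fold change −0.62 ± 0.19 (SE), adjusted p = 0.036), and *Edem3* at 244, 276 and 296 CPM and 157, 194 and 115 CPM (log2 fold change −0.76 ± 0.24 (SE), adjusted p = 0.041). The groups did not overlap for any of these 4 genes, and each was lower in 3 of 3 libraries. *Fkbp11* was at 366, 268 and 344 CPM and missed the threshold (log2 fold change −0.93 ± 0.31 (SE), adjusted p = 0.056). At the other end lay *Xbp1*, higher in 3 of 3 libraries and not called (log2 fold change 0.54 ± 0.21 (SE), adjusted p = 0.12), *Fkbp2* at 429, 589 and 512 CPM (log2 fold change 0.26 ± 0.20 (SE), adjusted p = 0.55) and *Kdelr3* at 51.1, 44.7 and 20.9 CPM (log2 fold change 0.40 ± 0.48 (SE), adjusted p = 0.76). *Rpn2*, *Hspa5*, *Qsox1*, *Edem2* and *Sec61g* had log2 fold changes of −0.00, −0.33, −0.63, −0.72 and −0.29, none called. The 5 markers of *Car6*-high cells summed to 234200, 117000 and 112200 CPM in that class, on the same totals. The count depended on the scaling and was 29 with TMM scaling and 17 with DESeq2. It was 19 without the female library and 1 without either male library. The median became 0.41 with all UMIs in the totals, beside 0.82 for all genes tested.

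*Tfrc*-high cells entered no comparison and are described by level. Next to *Xbp1*, the genes with their highest mean there were *Edem1*, at 255, 416 and 446 CPM, *Edem3*, at 543, 578 and 618 CPM, and *Dnajb9*, at 153, 324 and 294 CPM. *Hyou1*, a large HSP70-like chaperone, was at 147, 122 and 122 CPM against 68.4, 96.0 and 85.1 CPM in acinar cells, and *Sec61a1*, the channel subunit, also had its highest mean there. All *Tfrc*-high values of *Edem3* and *Hyou1* lay above those of the acinar class as a whole. Such levels were not particular to *Tfrc*-high cells. In shallow acinar cells of high mitochondrial share, defined below, *Hyou1* was at 170, 183 and 178 CPM. *Edem3* was at 631, 556 and 602 CPM and *Edem1* at 366, 628.5 and 599 CPM in that state. *Xbp1*, at 1099, 827 and 695 CPM, and *Dnajb9*, at 85.2, 192 and 180 CPM, were lower there than in *Tfrc*-high cells in each library. Dissociation genes summed to 18380, 18980 and 18910 CPM in *Tfrc*-high cells, against 1949, 7178 and 6905 CPM in acinar cells, and their part was not tested.

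Fibroblasts, which secrete collagen, had 35 genes lower and 3 higher than acinar cells, beside 20.3% and 39.2% of all genes tested, with a median of −1.12 against 0.36. The higher ones were *Kdelr3*, at 149, 158 and 129 CPM, 4.49-fold above acinar cells (log2 fold change 2.17 ± 0.34 (SE), adjusted p = 3.9e-07), *Hsp90b1*, at 1029, 1265 and 788 CPM, 1.53-fold (log2 fold change 0.61 ± 0.20 (SE), adjusted p = 0.0088), and *Pdia3*, at 550, 539 and 477 CPM, 1.41-fold (log2 fold change 0.50 ± 0.18 (SE), adjusted p = 0.014). None of the 3 overlapped with acinar cells. *Pdia4* was at 124, 112 and 98.9 CPM and not called (log2 fold change 0.53 ± 0.25 (SE), adjusted p = 0.062), and the other two KDEL receptors, *Kdelr1* and *Kdelr2*, had log2 fold changes of 0.15 and 0.32, neither called. At the low end were *Agr2*, 9.32-fold lower (log2 fold change −3.22 ± 0.26 (SE), adjusted p = 2.9e-14), *Edem2*, 8.39-fold lower (log2 fold change −3.07 ± 0.28 (SE), adjusted p = 8.1e-13), and *Qsox1*, 8.24-fold lower (log2 fold change −3.04 ± 0.24 (SE), adjusted p = 9.2e-15). *Rpn2* and *Sec61g* had log2 fold changes of −1.24 and −1.05, both called. *P4hb*, *Xbp1* and *Hspa5* were 4.33-fold, 2.51-fold and 1.73-fold lower, all called. The plasma cell genes summed to 3096 CPM in fibroblasts of male library 2, against 103 and 92.5 CPM in the other two, and dissociation genes summed to 24950, 22200 and 22840 CPM. The part of neither list was tested. With TMM scaling 1 gene was higher and 37 lower. With all UMIs in the totals the median turned to 1.17, beside 2.68 for all genes tested.

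In endothelial cells 41 genes were lower and 0 higher, with 20.3% and 40.3% of all genes tested lower and higher, and a median of −1.71 against 0.45. *Sdf2l1* was at 37.1, 95.3 and 88.5 CPM, 7.91-fold lower (log2 fold change −2.98 ± 0.25 (SE), adjusted p = 5.2e-14), *Fkbp11* at 35.3, 128 and 172 CPM, 7.79-fold lower (log2 fold change −2.96 ± 0.33 (SE), adjusted p = 1.7e-10), and *Edem2* 7.50-fold lower (log2 fold change −2.91 ± 0.29 (SE), adjusted p = 1.2e-11). *Dnajb9* at 75.4, 138 and 126 CPM (log2 fold change −0.20 ± 0.23 (SE), adjusted p = 0.47), *Pdia3* at 315, 316 and 317 CPM (log2 fold change −0.23 ± 0.18 (SE), adjusted p = 0.29) and *Hsp90b1* at 532, 546 and 447 CPM (log2 fold change −0.39 ± 0.21 (SE), adjusted p = 0.1) were not called. *Xbp1*, *Hspa5*, *P4hb* and *Rpn2* had log2 fold changes of −1.13, −1.02, −2.24 and −1.74, and *Qsox1*, *Sec61g* and *Agr2* of −2.67, −1.75 and −2.77, all called. Dissociation genes summed to 22620, 21120 and 20950 CPM in endothelial cells, and their part was not tested. With all UMIs in the totals the median turned to 0.42, beside 2.6 for all genes tested.

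Myeloid cells had 44 genes lower and 0 higher, beside 34.1% and 27.7% of all genes tested, with a median of −1.84 against −0.19. *Qsox1* was 13.1-fold lower (log2 fold change −3.71 ± 0.25 (SE), adjusted p = 5e-17), *Edem3* at 17.8, 28.2 and 28.2 CPM 11.6-fold lower (log2 fold change −3.54 ± 0.24 (SE), adjusted p = 1.5e-16), and *Kdelr3* at 1.27, 4.90 and 6.26 CPM 10.7-fold lower (log2 fold change −3.42 ± 0.48 (SE), adjusted p = 5.2e-08). The 2 genes not called were *Pdia3*, at 339, 304 and 299 CPM (log2 fold change −0.23 ± 0.18 (SE), adjusted p = 0.26), and *Hsp90b1*, at 505, 500 and 512 CPM (log2 fold change −0.39 ± 0.20 (SE), adjusted p = 0.092). *Pdia4*, the third from the top, was at 53.0, 55.2 and 42.3 CPM (log2 fold change −0.62 ± 0.26 (SE), adjusted p = 0.031). *Xbp1*, *Hspa5*, *P4hb* and *Rpn2* had log2 fold changes of −2.24, −0.81, −2.86 and −2.03, and *Edem2*, *Sec61g* and *Agr2* of −2.79, −1.33 and −3.31, all called. Plasma cell genes summed to 2112 CPM in myeloid cells of male library 2, against 40.6 and 55.2 CPM in the other two libraries, and dissociation genes summed to 18250, 11880 and 12150 CPM. The part of neither list was tested. With all UMIs in the totals the median turned to 0.50, beside 2.07 for all genes tested. All the comparisons with acinar cells share the acinar samples, so their counts are not independent of each other.

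The totals also set the counts over all genes. With TMM scaling in place of none, the genes called higher and lower changed from 619 and 70 to 350 and 536 in *Car6*-high cells, from 2802 and 519 to 1510 and 1541 in *Ltf*+ cells, and from 3247 and 1216 to 2340 and 2182 in ductal cells. They changed from 3307 and 1274 to 2314 and 2394 in MECs, from 3305 and 1714 to 2544 and 2814 in fibroblasts, and from 3400 and 1711 to 2621 and 2668 in endothelial cells. For depth they changed from 12 and 105 to 220 and 68, and for the mitochondrial share, both described below, from 2594 and 346 to 1234 and 998. With TMM scaling 45 of the 46 genes were lower in ductal cells, 46 in MECs, 46 in endothelial cells and 43 in *Ltf*+ cells.

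The pathways around the 46 genes were followed with 6 further lists, named for the role of their genes. In ductal against acinar cells, where 14.4% of all genes tested were lower and 38.5% higher, 13 of 13 tested genes of ER-associated degradation were lower, among them *Derl3*, a channel component, at a log2 fold change of −3.56 (adjusted p = 1.1e-12). Of 18 genes of ER-to-Golgi traffic, 15 were lower and 0 higher, led by the cargo-receptor family member *Tmed3* at −2.48. Further translocation genes gave 8 lower of 12 tested, with *Srprb*, the receptor subunit for the signal recognition particle, at −2.36, and glycosylation genes 9 lower and 1 higher of 13, with *Uggt1*, which tests the fold of glycoproteins, at −2.54. Further folding genes were split, with 10 lower and 5 higher of 18. The oxidase *Ero1lb* was at −3.34 and the isomerase *Txndc5* at −3.25, both lower, and *P3h1*, a prolyl hydroxylase of collagen, was called higher on 13, 3 and 0 UMIs in ductal cells and 0 UMIs in the acinar cells of each library, so no fold is given for it. The stress sensors and their factors gave 5 lower and 2 higher of 11. *Creb3l1*, a membrane-bound factor related to ATF6, was at −3.83 on 10, 2 and 0 ductal UMIs, *Bhlha15*, the factor of secretory architecture that also marks acinar cells, at −3.40, and *Ddit3*, which encodes CHOP, was higher at 2.31. *Bhlha15* was left in the clustering and is in the marker list that named the acinar class. Its changes between classes, and its place in the counts of this list, were thus partly set in advance. In fibroblasts against acinar cells, with 20.3% of all genes lower and 39.2% higher, 7 folding genes were lower and 6 higher. The largest of these changes were those of *P3h1*, on 194, 33 and 18 fibroblast UMIs and again none in acinar cells, and of the prolyl isomerases *Fkbp7*, with 856, 131 and 76 UMIs in fibroblasts and 6, 5 and 1 in acinar cells, and *Fkbp14*, with 281, 32 and 21 UMIs and 3, 5 and 3. In *Ltf*+ against ductal cells, with 12.7% of all genes higher and 11.5% lower, the degradation list gave 10 higher of 13 and the traffic list 11 higher of 18, with 0 lower in both. The stress list gave 2 higher and 3 lower there, with *Creb3l1* at 2.89, *Ppp1r15a*, which encodes a phosphatase subunit, at −1.87 and *Bhlha15* at 1.45. In *Car6*-high against acinar cells, with 0.83% of all genes lower and 7.34% higher, the degradation genes *Derl2* and *Os9* were lower, at −0.87 and −0.75. Of the folding genes *Txndc5* was lower, at −1.07, and the oxidase *Ero1l* and, at 0.55, the prolyl isomerase *Ppib* were higher. Tear-product UMIs were left out of the totals in each of these fits.

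Within acinar cells, the genes were followed over depth and mitochondrial share. Each library's acinar cells were split at its own medians of UMIs per cell and of the mitochondrial share of UMIs, which gave 4 states. The splits go together, since the deeper cells were 602 of low and 61 of high mitochondrial share in male library 1, so both splits were terms of the same fit over 5462 genes. The summed share of the 46 genes was highest in deep cells with a high mitochondrial share in each library, at 2.987%, 4.204% and 4.218%. The other 3 states changed their order between libraries, from 2.64%, 4.19% and 4.202% in deep cells with a low share to 2.89%, 3.85% and 3.89% in shallow cells with a high one. The means over libraries were 3.54% to 3.80% in the 4 states, and the differences between states in the sum were not tested. The sum hid opposite changes of its parts. The signal peptidase genes went from 0.418%, 0.674% and 0.679% to 0.321%, 0.379% and 0.421%, and the EDEM genes from 0.0497%, 0.0839% and 0.0782% to 0.152%, 0.21% and 0.203%.

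High against low mitochondrial share called 14 of the 46 genes higher and 13 lower, where 47.5% of all genes tested were higher and 6.33% lower. The median was 0.16, against 0.59 for all genes, a difference of −0.43. *Edem3* was at 111, 203 and 201 CPM in deep cells of low share and 425, 525 and 474 CPM in deep cells of high share (log2 fold change 1.56 ± 0.17 (SE), adjusted p = 4.4e-08). *Hyou1* was at 37.1, 68.9 and 57.0 CPM and 108, 238 and 128 CPM (log2 fold change 1.35 ± 0.20 (SE), adjusted p = 3.1e-06), and *Rpn1*, an oligosaccharyltransferase subunit, at 193, 363 and 343 CPM and 366, 813 and 685 CPM (log2 fold change 1.00 ± 0.14 (SE), adjusted p = 1.2e-06). For all 3 genes every deep cell sum of high share lay above its own library's sum of low share. The *Hyou1* values in deep cells of high share rest on 126, 24 and 32 UMIs. *Sec61g* went the other way, from 1012, 1555 and 1839 CPM to 842, 634 and 1179 CPM (log2 fold change −1.09 ± 0.16 (SE), adjusted p = 3.1e-06). So did *Sec61b*, the beta subunit of the channel, from 2064, 2869 and 3182 CPM to 1588, 1140 and 1949 CPM (log2 fold change −0.94 ± 0.14 (SE), adjusted p = 1.7e-06), and *Spcs1*, a small signal peptidase subunit, from 493, 751 and 786 CPM to 391, 377 and 530 CPM (log2 fold change −0.92 ± 0.17 (SE), adjusted p = 3.3e-05). The subunits of 1 complex thus differed in direction. In the Sec61 channel *Sec61a1* was higher (0.99) and its partners lower, and in the oligosaccharyltransferase *Rpn1* and *Rpn2* were higher (1.00 and 0.91) and *Dad1* lower (−0.35).

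All 3 EDEM genes rose, with *Edem2* from 267, 368 and 332 CPM to 349, 624 and 530 CPM in deep cells (log2 fold change 0.78 ± 0.14 (SE), adjusted p = 4e-05). *Xbp1* rose from 512, 524 and 480 CPM to 884, 743 and 666 CPM (log2 fold change 0.52 ± 0.13 (SE), adjusted p = 0.0014), *Hspa5* from 962, 1634 and 1469 CPM to 1738, 3370 and 2542 CPM (log2 fold change 0.88 ± 0.14 (SE), adjusted p = 5.3e-06) and *P4hb* from 1553, 2128 and 2042 CPM to 2442, 3519 and 2773 CPM (log2 fold change 0.64 ± 0.12 (SE), adjusted p = 6e-05). The median of all genes tested was 0.59, so *Xbp1* rose less than the median gene, *P4hb* lay near it and *Hspa5* and *Edem2* lay above it. *Qsox1* and *Rpn2* had log2 fold changes of 0.95 and 0.91, both higher, and *Agr2* of −0.42, lower. From the same libraries, the study reported *Rpn2*, *P4hb* and *Qsox1* higher in its acinar cluster rich in mitochondrial transcripts. It reported *Sec61g* higher in its other main acinar cluster. The directions of these genes are therefore not independent of that report. With TMM scaling 8 of the 46 genes were higher and 19 lower and the median was −0.31. All 5462 genes tested gave 1234 higher, 998 lower and a median of 0.15 there. With all UMIs in the totals 28 were higher and 3 lower and the median was 0.53. All 5571 genes tested gave 3786 higher, 100 lower and a median of 0.93, so the 46 genes lay below all genes in both fits. Dissociation genes rose too, 15 of 20 tested, from 1117, 5298 and 4920 CPM in deep cells of low share to 2606, 11620 and 7814 CPM in those of high share, and their part was not tested. Of the further lists introduced above, the stress sensors gave 10 higher of 10 tested, the traffic list 10 of 18, the degradation list 6 of 13, further translocation genes 6 of 12, glycosylation genes 7 of 13 and further folding genes 5 of 14, to be read against the 47.5% of all genes that were higher. Lower were 0, 0, 1, 1, 3 and 1 of them. The largest change of each list was *Eif2ak3*, which encodes the sensor PERK, at 1.34, *Copa* at 1.14, *Vcp* at 1.29, *Emc1* at 1.35, *Man1b1* at 1.48 and *Txndc11* at 1.14.

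**Figure D4:**
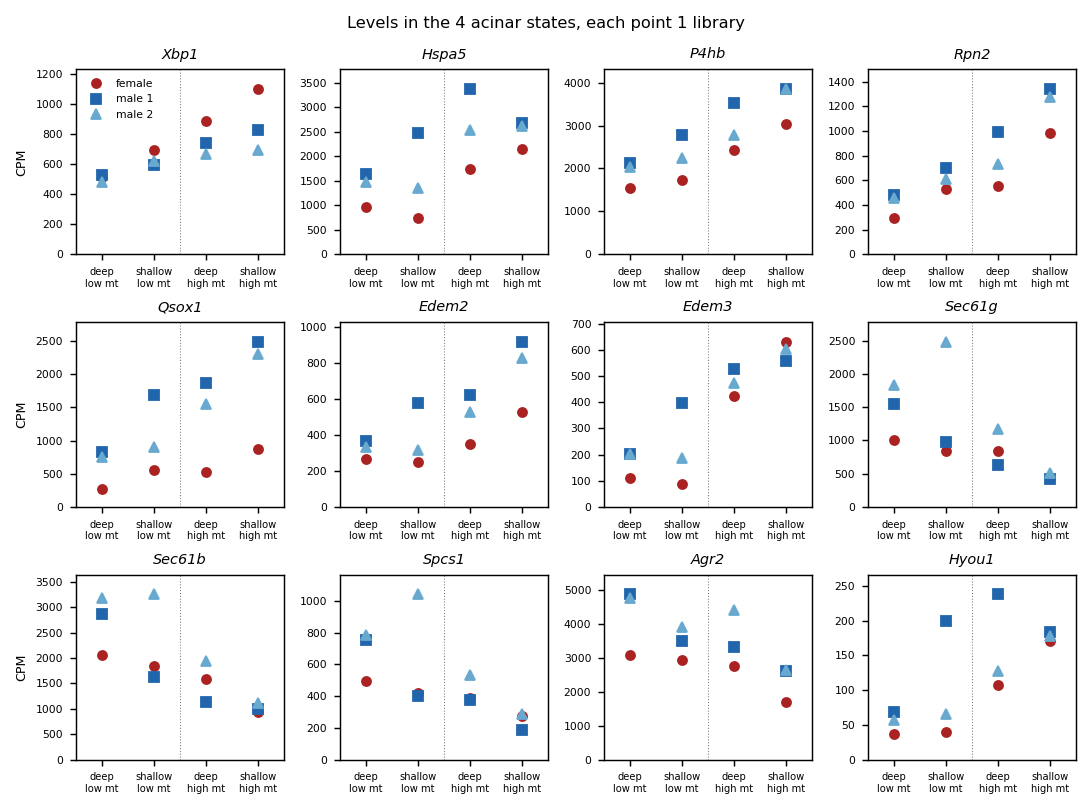
CPM of members (panels) in the 4 acinar states by depth and mitochondrial share (horizontal axis), with 1 point per library, on totals without tear-product and mitochondrial UMIs. *Sec61g* falls from 1468 CPM on average in deep cells of low mitochondrial share to 457 CPM in shallow cells of high share, while *Edem3* goes from 171 to 596 CPM.

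Depth itself called 2 genes, both lower in deep than in shallow cells, and 0 higher, beside 1.92% and 0.22% of all genes tested. *Qsox1* was at 276, 823 and 756 CPM in deep and 553, 1692 and 909 CPM in shallow cells of low mitochondrial share (log2 fold change −0.66 ± 0.13 (SE), adjusted p = 0.0046), and *Rpn2* at 293, 479 and 454 CPM and 529, 697 and 613 CPM (log2 fold change −0.66 ± 0.13 (SE), adjusted p = 0.0046). Both were lower in 3 of 3 libraries. *Edem1* missed the threshold (log2 fold change −0.52 ± 0.15 (SE), adjusted p = 0.053), as did the 3 highest, *Sec61g* (log2 fold change 0.53 ± 0.16 (SE), adjusted p = 0.065), *Kdelr1* (log2 fold change 0.51 ± 0.18 (SE), adjusted p = 0.11) and *Spcs1* (log2 fold change 0.51 ± 0.17 (SE), adjusted p = 0.082). *Xbp1*, *Hspa5*, *P4hb*, *Edem2* and *Agr2* had log2 fold changes of −0.25, −0.04, −0.27, −0.42 and 0.44, none called. The median of the 46 genes was 0.05 and that of all genes −0.22. The counts rest on the scaling. Under TMM 13 of the 46 genes were higher and 0 lower, beside 220 and 68 of all 5462 genes tested. When all UMIs stay in the totals, 0 were higher and 21 lower, beside 4 and 2646 of all 5571 genes tested. Without the female library 6 genes were called, and without either male library 1.

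The genes that rose and fell with the mitochondrial share differed in coding length. Over the 46 genes, Spearman's correlation of the coding length of the principal transcript with the log2 fold change was 0.85, and over 5379 of the genes tested it was 0.74, so the relation was not particular to these genes. It is given across genes, which are not independent, and without a p. Of the 23 genes with a coding length under 829.5 bases, 13 were lower and 2 higher, with a median of −0.34. Of the 23 longer genes, 0 were lower and 12 higher, with a median of 0.41. *Sec61g* codes for 204 bases, *Sec61b* for 288 and *Spcs1* for 306, whereas *Edem3* codes for 2793 and *Hyou1* for 2997. Coding length is not transcript length. The principal transcript of *Sec61g* has 1862 bases, and that of *Dad1*, which codes for 339, has 3491. Correlations with transcript length are not given here. For depth the correlations were −0.73 over the 46 genes and −0.46 over all genes, but with the middle of each split left out they were −0.34 and 0.015, where those for the mitochondrial share were 0.84 and 0.62. Between classes of cells they lay from −0.11 to 0.05 over the 46 genes.

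**Figure D5:**
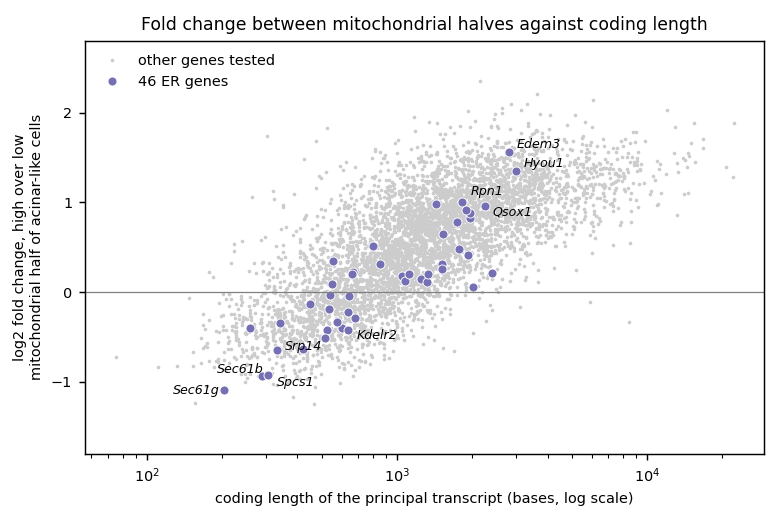
Log2 fold change of high over low mitochondrial acinar cells (vertical axis) against coding length in bases on a log axis (horizontal axis), for the 46 genes as large points and the other genes tested as small points. *Sec61g*, *Sec61b* and *Spcs1*, of short coding length, lie at −1.09, −0.94 and −0.92, and *Edem3* and *Hyou1*, of long coding length, at 1.56 and 1.35, on totals without tear-product and mitochondrial UMIs.

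Across the 36 sums of 3 libraries and 12 classes, the genes closest to the summed level of the other 45 were *Ssr2*, a subunit of the translocon-associated complex, with Spearman's rho of 0.96, *P4hb* with 0.94 and *Dnajc3*, a cochaperone of BiP, with 0.94. The least alike were *Pdia4* at 0.24, *Pdia3* at 0.40 and *Canx* at 0.43. The sums of 1 library share depth and free RNA, so these values only describe the order of the genes.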

How the data were processed

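Single-cell suspensions of mouse lacrimal gland were measured in 3 libraries. The authors ran CellRanger v6.1.2 (build mm10) and deposited UMI counts per gene and barcode, used here as deposited, before their removal of ambient RNA, doublets and poor cells. The annotation release is not given in the sources used here.

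Barcodes were kept above 500 UMIs and 200 genes and below 15% mitochondrial UMIs, as in the study's methods, and the highest scrublet scores (scanpy 1.11.5) were removed at 0.8% per 1000 barcodes. Cells were integrated and clustered with Seurat 5.3.0 and sctransform 0.4.2 in R 4.3.3 (3000 features, 30 dimensions, resolution 1) without the 46 genes. Classes were named from marker lists, by a rule set after the clusters had been seen, and differences from the study may come from these rebuilt names. UMIs were summed per library and class and tested with edgeR 4.0.16 (quasi-likelihood, library as a block, totals without tear-product and mitochondrial genes, Benjamini-Hochberg over all genes tested). The block pairs classes of the same suspension. Scripts were tested on simulated data first. Alternatives were TMM, DESeq2 1.42.0, other totals and filters, each library left out, free RNA subtracted from ductal, myoepithelial, endothelial, fibroblast and myeloid sums, and other splits of acinar cells.

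The members and lists were chosen with earlier results of these data known. Named in each comparison are *Xbp1*, *Hspa5*, *P4hb*, *Rpn2*, *Qsox1*, *Edem2*, *Sec61g* and *Agr2*, the 3 highest and the 3 lowest members and, for further lists, up to 3 called genes with the largest changes, without a fold where a class had too few UMIs. Counts of further lists are given for the comparisons that the text names. Promoters came from RefSeq (GRCm38.p6) and coding lengths from GENCODE vM21. Intervals cover counting error only, since each pool is 1 sample. Total UMIs per library set the precision, and sums of few UMIs, such as those of *Kdelr3*, are the least precise.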

Additional observations from a re-analysis of the deposited data

Results flagged for a closer look

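*Pdia3* in myeloid against acinar cells moved one way in the female library and the other way in both male libraries. Its log2 fold change was 0.157 in the female library, and it was −0.55 and −0.29 in male libraries 1 and 2. The difference was not tested, and the female library was also made at another site and on another day.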

How the results depend on the processing

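Of 1959 refits of 124 named gene results, 1741 stayed on the same side of the threshold, 92 lost a call and 84 gained one. The other 42 reversed, 38 of them with all UMIs in the totals and 4 with TMM. Among the 1741, 56 changed sign without a call in either fit. The cause of the changes was not tested beyond the totals themselves.

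With all UMIs in the totals the median log2 fold changes became 0.41 in *Car6*-high, 0.71 in *Ltf*+, 0.51 in ductal, 0.52 in MEC, 1.17 in fibroblast, 0.42 in endothelial and 0.50 in myeloid against acinar cells, and −0.32 for depth. The lower calls became 0 in *Car6*-high, 1 in *Ltf*+, 7 in ductal, 7 in MEC, 4 in fibroblast, 6 in endothelial and 6 in myeloid cells, and the higher calls of *Ltf*+ against ductal cells became 6. Reversed single genes were *P4hb* at 0.11 in *Car6*-high cells. In *Ltf*+ cells *Xbp1* was at 1.28, *Hspa5* 0.60, *P4hb* 0.14, *Rpn2* 0.97, *Sec61g* 1.11 and *Agr2* 0.0052. In ductal cells *Xbp1* was at 0.85, *Hspa5* 0.95, *Rpn2* 0.43, *Sec61g* 0.82, *Pdia4* 2.21, *Pdia3* 2.19 and *Dnajb9* 1.97. In MECs *Xbp1* was at 0.29, *Hspa5* 0.79, *Rpn2* 0.58, *Sec61g* 0.58 and *Hsp90b1* 2.02. In fibroblasts *Xbp1* was at 0.97, *Hspa5* 1.51, *P4hb* 0.18, *Rpn2* 1.06 and *Sec61g* 1.25. In endothelial cells *Xbp1* was at 0.99, *Hspa5* 1.09, *Rpn2* 0.38, *Sec61g* 0.36, *Dnajb9* 1.92, *Pdia3* 1.89 and *Hsp90b1* 1.72. In myeloid cells *Xbp1* was at 0.11, *Hspa5* 1.53, *Rpn2* 0.31, *Sec61g* 1.02, *Pdia3* 2.11, *Hsp90b1* 1.964 and *Pdia4* 1.70. With TMM, *Pdia3* was at −0.0369 and *Fkbp2* at −0.56 in *Ltf*+ cells, and *Srp14* at −0.52 and *Pdia4* at −0.57 in MECs.

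Calls in *Car6*-high cells numbered 29 with TMM, 17 with DESeq2, 2 without a filter, 10 with mitochondrial UMIs in the totals, 0 without the replicate block, 14 with a longer tear-product list, 1 with free RNA subtracted from classes outside the acini, 11 with the 2 classes alone, 19 without the female library and 1 without either male library. *Ltf*+ cells gave 20 in that same fit, and *Ltf*+ against ductal cells 20 to 31 with a library left out, the fewest without male library 2. Depth gave 13 with TMM, 15 with DESeq2, 5 without a filter, 0 with mitochondrial UMIs in the totals, 21 with all UMIs, 0 without the block, 11 with the longer tear-product list, 4 with the unnamed cluster as acinar, 1 with depth counted without tear-product and mitochondrial UMIs, 0 when the middle of each split was left out, 6 without the female library and 1 without either male library. Its median was −0.0172 under 5% mitochondrial UMIs, −0.0111 without the block and −0.0039 to 0.0759 with a library left out, lowest without male library 2. The mitochondrial share gave 12 calls without the block and 15 when the middle of each split was left out, where 10 of 12 sums held cells. Its median was −0.31 with TMM, −0.29 with DESeq2, −0.11 with mitochondrial UMIs in the totals and −0.0253 with the longer tear-product list. All genes tested had medians of 0.15, 0.17, 0.35 and 0.43 in the same fits. The longer list and the unnamed cluster were chosen after seeing the data.

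The 3 pools limit every test, and 3′ counts do not see splicing or protein. Shallow states hold few UMIs. So do deep cells of high mitochondrial share in the male libraries, with 100887 and 250957 UMIs outside tear-product and mitochondrial genes.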
